A study of Mus musculus with 4 samples.

Results

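The WNT ligands, their receptors and the secreted and intracellular proteins that restrain them were examined in laser-captured epidermis of the hairless hindpaw skin of transgenic mice. The members were chosen by gene symbol: every Wnt, Fzd, Dkk and Sfrp gene, together with Wif1, Lef1, Axin2, Nkd1, Nkd2, Notum, Kremen1, Kremen2, Lgr4, Lgr5, Lgr6, Znrf3 and Rnf43. This gave 50 of the 19938 genes to which the platform annotation ties a probe set with 1 symbol. Tcf7, which the choice also names, was not analysed here. The members comprise 19 ligands, 10 frizzled receptors, 5 genes of the LGR receptors and their ligases, 12 extracellular inhibitors, 3 intracellular feedback inhibitors and the transcription factor Lef1.

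Mice of one line overexpressed noggin, a secreted protein that binds and blocks bone morphogenetic proteins (BMPs), and mice of the other overexpressed BMP4, one of those ligands. Both transgenes were driven by the K14 promoter, which is active in basal keratinocytes. Strips of epidermis, 8 to 10 from each animal, were cut from sections by laser, and RNA from 3 of the 6 animals of a line was pooled for each array, which gave 2 noggin arrays and 2 BMP4 arrays. The sources used here give no age, sex or strain of the mice. Arrays of non-transgenic skin were not analysed here, so the lines are compared only with each other, and each difference is the log2 mean of noggin less that of BMP4. Each replicate is a pool, and where 2 values are given for a line they are replicate 1 and replicate 2.

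WNT proteins are lipid-modified ligands that bind frizzled receptors together with the co-receptors LRP5 and LRP6. In the canonical branch this stabilizes beta-catenin, which joins LEF and TCF proteins on DNA and activates target genes, among them the pathway's own inhibitors. In mouse skin the pathway is best known for starting hair follicles and driving their growth phase, and it also acts in the basal layer of epidermis without hair. Noggin has been linked to induction of LEF1 in developing mouse follicles.

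The label of epidermis was set against keratin markers. Krt14, the basal keratin that lends its promoter to the transgenes, had log2 values of 12.25 and 12.25 in noggin epidermis and 12.42 and 12.36 in BMP4 epidermis, and Krt9, the keratin of thick hairless skin, had 13.39 and 13.29 in noggin and 13.44 and 13.28 in BMP4. Transcripts of other cells were also present, such as Dcn, which encodes a dermal proteoglycan, with 11.41 and 11.17 in noggin and 11.15 and 11.60 in BMP4. In pooled tissue, fewer cells of a type and less RNA per cell cannot be told apart. The array medians lay between 6.04 and 6.06 log2 units. BMP4 replicate 1 correlated least with the other arrays (r from 0.985 to 0.989 across genes, which are not independent replicates, against 0.992 to 0.993 among the other arrays).

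Probe sets differ in affinity, so signal does not rank the members by abundance. As a description, 26 of the 50 members lay above the array median on all 4 arrays, and 6 of these, Wnt4, Fzd1, Fzd6, Fzd7, Sfrp2 and Sfrp4, lay above the upper quartile on all 4. Wnt1 and Wnt8b lay below the lower quartile on every array. Whether a dim probe set was detected is unknown.

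No member passed the threshold between noggin and BMP4 epidermis. Limma called 0 of the 50 at an adjusted p below 0.05, where it called 0.0% of all genes, and the smallest adjusted p among members was 0.874, for Wif1. At an unadjusted p below 0.05 it gave 0 of 50 members, against 4.28% of all genes, 2.18% higher and 2.1% lower in noggin, and 5.61% of all probe sets. The differences ran from -0.61 for Sfrp4 to 0.33 for Fzd3, and 33 members had a lower mean in noggin, which is 66.0% against 52.1% of all genes. Means at least 0.5 log2 units apart were found in 2 members, Sfrp4 and Lgr4, or in 4.0%, against 2.89% of all genes. The median difference was -0.05 over the members and -0.01 over all genes. The noggin arrays were both under the BMP4 arrays in 11 members, or 22.0%, against a background of 17.9%, namely Wnt10a, Wnt7a, Wnt8a, Wnt8b, Fzd1, Fzd2, Fzd9, Lgr4, Rnf43, Wif1 and Nkd1. The noggin arrays were both over the BMP4 arrays in 1 member, Wnt1, or 2.0%, against a background of 15.7%. An exact permutation test of 2 arrays against 2 cannot give a two-sided p below 0.333, so these orders have no test of their own. The excess of members under BMP4 depended on noggin replicate 2. Without that array, noggin lay under both BMP4 arrays in 15 members and over both in 18. The shares of all genes were then 31.4% and 35.6%. With any other array left out, noggin lay under BMP4 in 15 to 32 members and over it in 4 to 11.

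**Figure D1:**
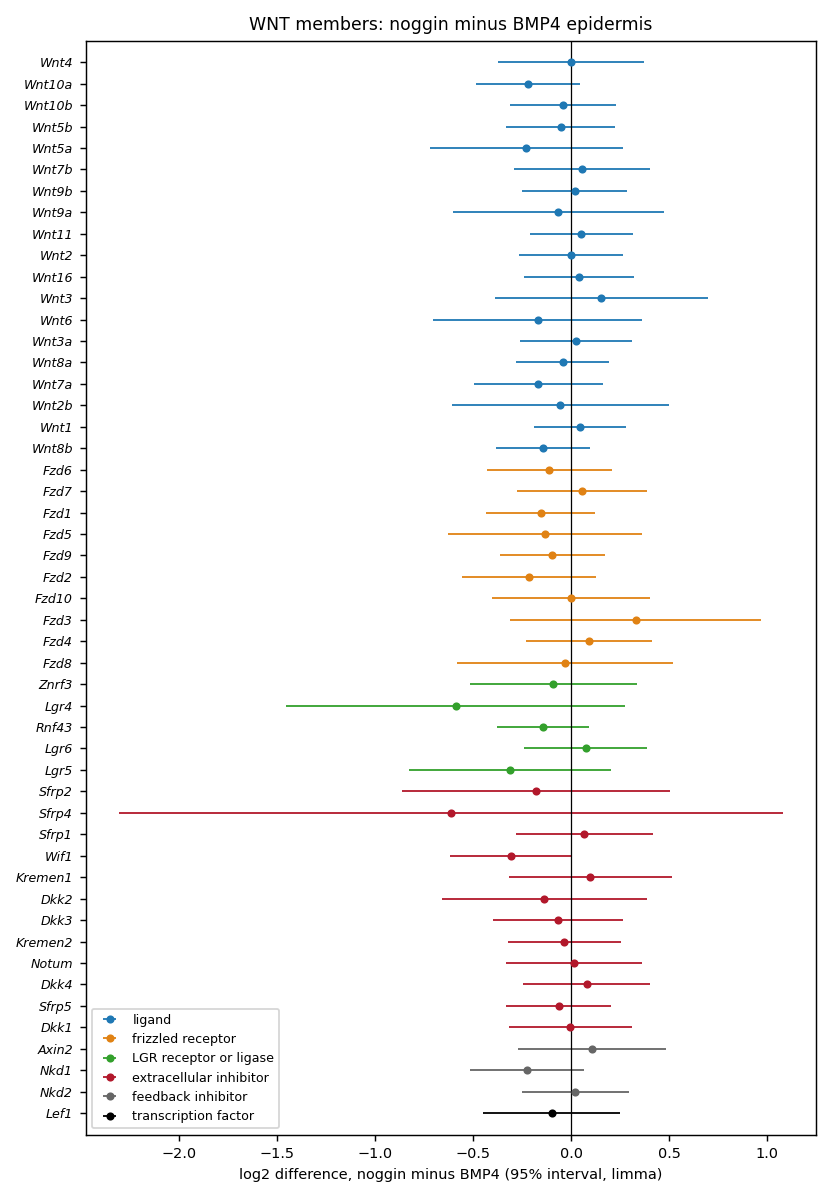
Log2 difference between noggin and BMP4 epidermis for the 50 WNT members, one row per gene, coloured by role, with the 95% interval of the limma fit. All 50 intervals include 0, and those of Sfrp4 and Lgr4 are the widest.

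The intervals show what sizes of change in signal the 4 arrays can set bounds on. In 48 of the 50 members the 95% interval lay within a 2-fold change in either direction, the exceptions being Lgr4 and Sfrp4. The same held for 19088 of all 19938 genes. The interval lay within a 1.5-fold change in 37 members and in 15745 of all genes. Of the members, 17 lay below the array median on all 4 arrays. Whether those were detected is unknown, so for them an interval bounds the signal and not the amount of RNA. The median half-width was 0.33 log2 units for the members and 0.31 for all genes.

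In most members, as in most genes, the pools of a line differed by more than the lines did. In 43 of the 50, or 86.0%, the gap between the 2 pools of at least one line exceeded the difference between the lines, against 78.1% of all genes. The larger of 2 gaps between single arrays spreads more widely than a difference of means, so this count says little about the members themselves. Noggin replicate 2 was the lowest of the 4 arrays in 26 members, or 52.0%, against 32.6% of all genes, and it was the highest in 4. BMP4 replicate 2 was the highest in 21 members, or 42.0%, against 25.4% of all genes, and the lowest in 4. Relative to each member's mean, noggin replicate 1 had a median of 0.05, noggin replicate 2 of -0.07, BMP4 replicate 1 of -0.0049 and BMP4 replicate 2 of 0.04. Without noggin replicate 2 the count of members with a lower mean in noggin was 22 (all genes 47.4%) and their median difference was 0.04. Without noggin replicate 1 the count was 41 (all genes 55.3%) and the median difference -0.12. Without BMP4 replicate 1 the count was 34 (68.0%, all genes 52.9%), and without BMP4 replicate 2 it was 29 (58.0%, all genes 50.2%). Markers of the hair follicle were also lower on average in noggin. This held for 10 of 10 measured genes of the hair matrix and shaft (median difference -0.34, from -4.75 to -0.03). It held for 7 of 8 of the inner root sheath (median difference -0.09). Of the 10, Krt31, Krt33a, Krt34, Krt35 and Dsg4 lay below the array median on all 4 arrays. On BMP4 replicate 1, 6 of the 10 stood at least 0.3 log2 units above every other array, against 2.11% of all genes. The part of these markers in the members' counts was not tested.

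**Figure D2:**
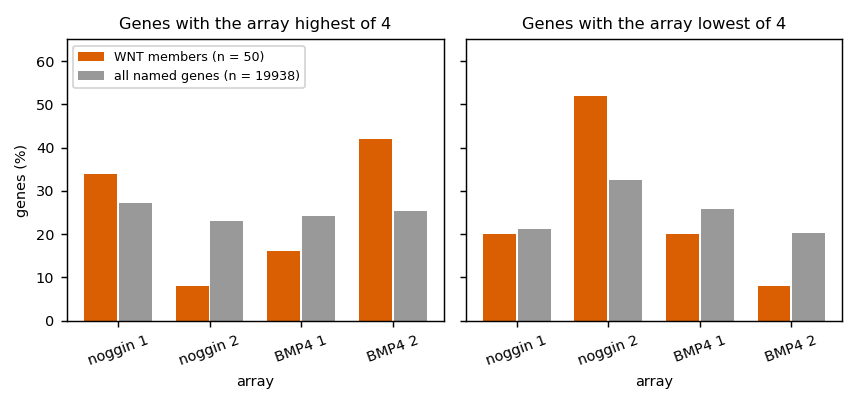
Share of genes (%) in which each array had the highest value (left) or the lowest value (right) of the 4, for the 50 WNT members and for all 19938 named genes. Noggin replicate 2 was lowest in 52.0% of members against 32.6% of all genes, and BMP4 replicate 2 was highest in 42.0% against 25.4%.

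**Figure D3:**
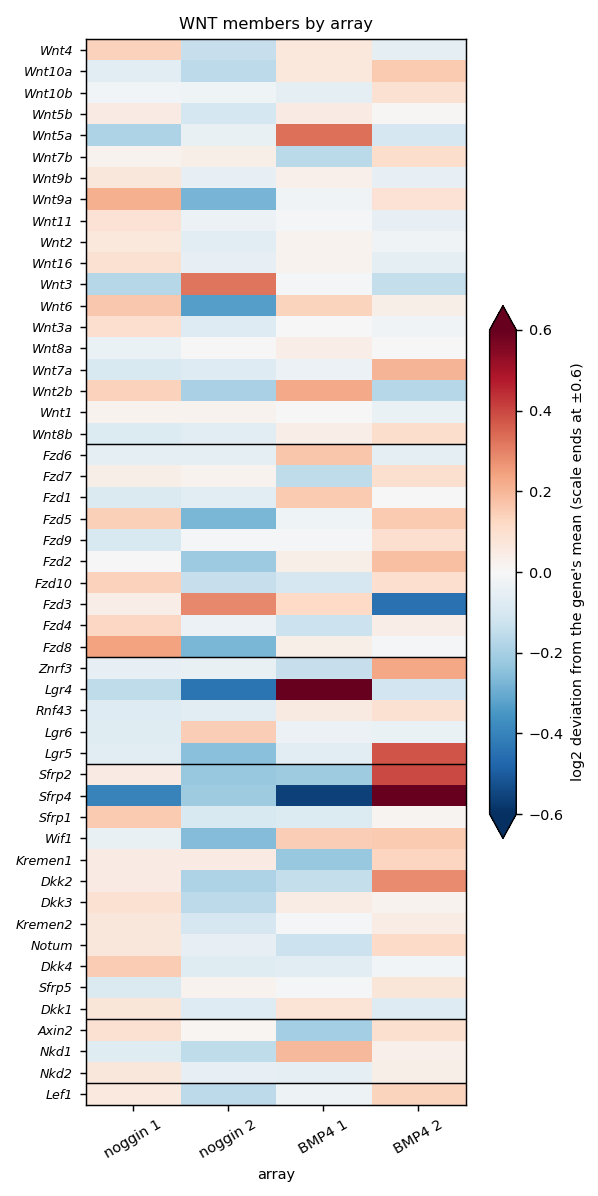
Log2 deviation of each WNT member from its own mean on each of the 4 arrays, with red for higher and blue for lower, and lines between the roles. Sfrp4 is red on BMP4 replicate 2 and Lgr4 on BMP4 replicate 1. Each is blue on the other arrays, strongly so for Sfrp4 on BMP4 replicate 1.

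Among the 19 ligands, Wnt4 had the only probe set above the upper quartile on all arrays. Wnt4, a ligand of epidermis and of many developing organs, had 8.35 and 8.07 in noggin epidermis and 8.28 and 8.15 in BMP4 epidermis. The arrays of the lines interleaved, and the difference was -0.0032, its 95% interval running from -0.38 to 0.37 (limma, adjusted p = 1.0). Wnt4 was the only member with a second probe set, which gave 6.83 and 6.63 in noggin and 6.50 and 6.64 in BMP4, a difference of 0.16 (limma, adjusted p = 0.950).

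Wnt10a, which is needed for hair, teeth and the thickened epidermis of palms and soles, had 6.97 and 6.88 in noggin and 7.10 and 7.19 in BMP4. The groups did not overlap, and the gap between them exceeded the gap between pools. The difference was -0.22, or 1.17-fold higher in BMP4, and it did not pass (limma, adjusted p = 0.905). Wnt3, a canonical ligand of the follicle, had 5.37 and 5.86 in noggin and 5.53 and 5.40 in BMP4. Noggin replicate 2 alone was high for Wnt3, and the groups overlapped (difference 0.15, limma, adjusted p = 0.981).

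The other 16 ligands had differences between -0.23 and 0.05, with 10 lower and 6 higher in noggin, and adjusted p between 0.939 and 1.0 (limma). Some of them are singled out here after their values were seen, because 1 array or both arrays of a line stood apart. Wnt5a, a ligand that acts mostly outside the beta-catenin branch, had 6.19 and 6.33 in noggin and 6.71 and 6.28 in BMP4, so that BMP4 replicate 1 alone was high. Wnt6, an epithelial ligand, had 5.66 and 5.17 in noggin and 5.64 and 5.54 in BMP4, with noggin replicate 2 alone low. Wnt7b, a ligand of the follicle and epidermis, had 6.36 and 6.38 in noggin and 6.18 and 6.45 in BMP4, and Wnt10b, a ligand tied to follicle growth, had 6.58 and 6.58 in noggin and 6.55 and 6.69 in BMP4. The noggin pools of both genes lay between the BMP4 pools. Wnt1, the only member whose noggin arrays were both over the BMP4 arrays, had 4.58 and 4.59 in noggin and 4.56 and 4.52 in BMP4, a difference of 0.04 in a probe set below the lower quartile.

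Several ligand genes are chromosomal neighbours. In the GRCm38.p6 gene table, 5 pairs of members lay within 100 kb of each other with no protein-coding gene between them: Wnt6 and Wnt10a, Wnt3a and Wnt9a, Wnt9b and Wnt3, Wnt10b and Wnt1, and Kremen1 and Znrf3. The differences were -0.17 for Wnt6 and -0.22 for Wnt10a, and 0.02 for Wnt9b and 0.15 for Wnt3. In the remaining pairs the signs were opposite, with 0.02 for Wnt3a and -0.07 for Wnt9a, -0.04 for Wnt10b and 0.04 for Wnt1, and 0.10 for Kremen1 and -0.09 for Znrf3. The annotated spans of Wnt9b and Wnt3 overlap.

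**Figure D4:**
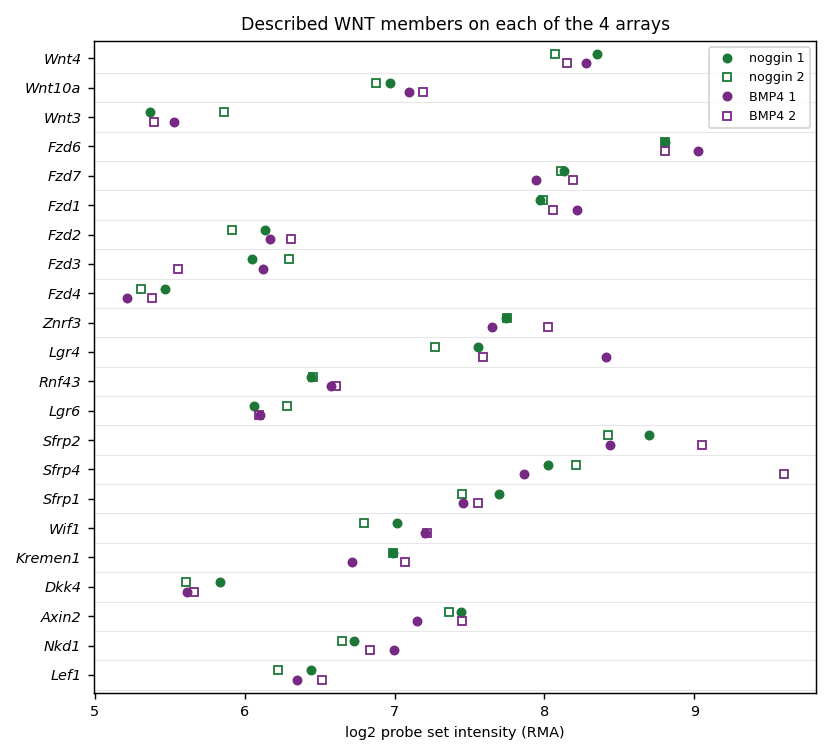
Log2 probe set intensity of the 22 WNT members described by the rule, with noggin arrays (green) drawn above BMP4 arrays (purple) in each row, circles for replicate 1 and open squares for replicate 2. Noggin and BMP4 points are set apart without overlap in Wnt10a, Fzd1, Fzd2, Lgr4, Rnf43, Wif1 and Nkd1.

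The 10 frizzled receptors gave no called difference (limma, smallest adjusted p = 0.939). In all 10 the gap between the pools of at least one line exceeded the difference between the lines, as it did in 78.1% of all genes. Of the 10, 7 had a lower mean in noggin. Fzd6, a receptor with a known role in hair orientation and in claw growth, had 8.81 and 8.80 in noggin and 9.03 and 8.80 in BMP4. The excess lay in BMP4 replicate 1 alone, and the difference of -0.11 was 0.0009 without that array. Fzd7 had 8.13 and 8.11 in noggin and 7.94 and 8.19 in BMP4, with the noggin pools between the BMP4 pools.

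Fzd1 had 7.97 and 7.99 in noggin and 8.22 and 8.06 in BMP4, without overlap (difference -0.16, limma, adjusted p = 0.946). Fzd2 had 6.13 and 5.91 in noggin and 6.17 and 6.31 in BMP4, also without overlap (difference -0.22, limma, adjusted p = 0.939). Fzd1, Fzd2 and Fzd7 form a subfamily of close relatives, and Fzd7 did not share the order of the other 2. Fzd3, a receptor of axon guidance and tissue polarity, had 6.05 and 6.29 in noggin and 6.12 and 5.56 in BMP4. BMP4 replicate 2 alone was low for Fzd3, and the difference of 0.33 was the highest of any member but ranged from 0.04 to 0.61 with 1 array left out. Fzd4 had 5.46 and 5.30 in noggin and 5.21 and 5.38 in BMP4, with overlap. Fzd5, Fzd8, Fzd9 and Fzd10 had differences between -0.13 and -0.0016.

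LGR4, LGR5 and LGR6 bind R-spondins, and the ligases ZNRF3 and RNF43, which the R-spondin complex removes, take frizzled receptors off the cell surface. Lgr4 had 7.55 and 7.27 in noggin and 8.41 and 7.59 in BMP4. All arrays of BMP4 lay above those of noggin, but BMP4 replicate 2 was only just above noggin replicate 1, and most of the difference came from BMP4 replicate 1. The difference was -0.59, or 1.505-fold higher in BMP4, and its interval ran from -1.46 to 0.28 (limma, adjusted p = 0.936). The difference became -0.18 when BMP4 replicate 1 was left out and -0.998 when BMP4 replicate 2 was. On BMP4 replicate 1 the 10 measured markers of the hair matrix and shaft were also high. Their median there was 0.46 above their means, and 8 of 10 were highest there, against 24.2% of all genes. Their medians were -0.13 in noggin replicate 1, -0.28 in noggin replicate 2 and -0.02 in BMP4 replicate 2. Of 6 basal keratinocyte markers, 4 were highest on BMP4 replicate 1 as well, with a median of 0.09 there. The part of either list in the Lgr4 value was not tested.

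Lgr5, a marker of follicle stem cells, had 5.35 and 5.17 in noggin and 5.35 and 5.79 in BMP4, with BMP4 replicate 2 alone high. It is named after its values were seen. Lgr6, which marks stem cells of the follicle isthmus and of sweat glands in mice, had 6.06 and 6.28 in noggin and 6.10 and 6.09 in BMP4, and the groups overlapped (difference 0.07, limma, adjusted p = 0.984). Rnf43 had 6.44 and 6.45 in noggin and 6.57 and 6.61 in BMP4. The pools of each line agreed closely for Rnf43 and the lines did not overlap, with a difference of -0.15 (limma, adjusted p = 0.939). Znrf3, its relative, had 7.74 and 7.75 in noggin and 7.65 and 8.02 in BMP4, so that the noggin pools lay between the BMP4 pools.

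The 12 extracellular inhibitors gave no called difference either, and 8 of the 12 had a lower mean in noggin. Wif1, a secreted protein that binds WNT ligands, came nearest. It had 7.01 and 6.80 in noggin and 7.20 and 7.22 in BMP4. The BMP4 pools were almost equal and both above the noggin pools, with means of 6.91 ± 0.15 in noggin and 7.21 ± 0.0096 in BMP4 (SD, n = 2 each). The difference was -0.30, or 1.24-fold higher in BMP4, and its interval ran from -0.62 to 0.0063 (limma, adjusted p = 0.874), and it ranged from -0.41 to -0.20 with 1 array left out.

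The secreted frizzled-related proteins resemble the ligand-binding part of frizzled receptors and hold WNT proteins outside the cell. Sfrp4 had 8.02 and 8.21 in noggin and 7.86 and 9.60 in BMP4. BMP4 replicate 2 was highest and BMP4 replicate 1 lowest of the 4, so the means were 8.12 ± 0.13 in noggin and 8.73 ± 1.23 in BMP4 (SD, n = 2 each). Its difference of -0.61 was the lowest of any member, its interval running from -2.31 to 1.08 (limma, adjusted p = 0.964). It became 0.25 when BMP4 replicate 2 was left out and -1.48 when BMP4 replicate 1 was. Sfrp2 had 8.70 and 8.43 in noggin and 8.44 and 9.05 in BMP4, again with BMP4 replicate 2 highest (difference -0.18, and 0.12 without that array). Sfrp1 had 7.70 and 7.45 in noggin and 7.46 and 7.56 in BMP4, and showed no such excess.

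The DKK proteins bind the LRP co-receptors, with KREMEN proteins as partners of DKK1 and DKK2. Dkk2, named after its values were seen, had 6.86 and 6.63 in noggin and 6.67 and 7.10 in BMP4, with BMP4 replicate 2 highest, as for Sfrp2 and Sfrp4. Dkk1, which fibroblasts of human palms and soles are known to make, had 5.34 and 5.19 in noggin and 5.35 and 5.19 in BMP4, with no excess on that array. Dkk4 had 5.83 and 5.60 in noggin and 5.62 and 5.66 in BMP4. Dkk3, a divergent relative, had 6.74 and 6.49 in noggin and 6.70 and 6.67 in BMP4. Kremen1 had 6.99 and 6.99 in noggin and 6.71 and 7.07 in BMP4, and Kremen2, Notum, which encodes an enzyme that removes the lipid of WNT proteins, and Sfrp5 differed by -0.04, 0.01 and -0.06.

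BMP4 replicate 2 was the highest array in 7 of the 12 extracellular inhibitors and noggin replicate 2 the lowest in 8. The dermal fibroblast markers moved with BMP4 replicate 2 as well. Of the 9 measured, 7 were highest there (25.4% of all genes), and 8 were lowest on BMP4 replicate 1 (25.9%). BMP4 replicate 1 was also lowest in 7 of 7 Langerhans cell, 6 of 7 skeletal muscle, 6 of 8 endothelial and mural, and 4 of 6 T cell markers. In each of the other marker lists it was lowest in 3 genes or fewer. Relative to their own means, the fibroblast markers had a median of 0.06 on noggin replicate 1, 0.07 on noggin replicate 2, -0.18 on BMP4 replicate 1 and 0.18 on BMP4 replicate 2. Lum, a dermal proteoglycan not picked by a rule, had 7.80 and 8.18 in noggin and 7.23 and 8.36 in BMP4. Dpt, with 8.68 and 9.31 in noggin and 7.29 and 8.59 in BMP4, was instead highest on noggin replicate 2. So was Vim, with 10.88 and 11.13 in noggin and 10.27 and 11.02 in BMP4. Of the 9 markers, 4 had a higher and 5 a lower mean in noggin. The dimmest of the 9 on any array, Twist2 at 6.11 in noggin replicate 2, was above that array's median of 6.04. The part of these markers in the Sfrp4, Sfrp2 and Dkk2 values was not tested.

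**Figure D5:**
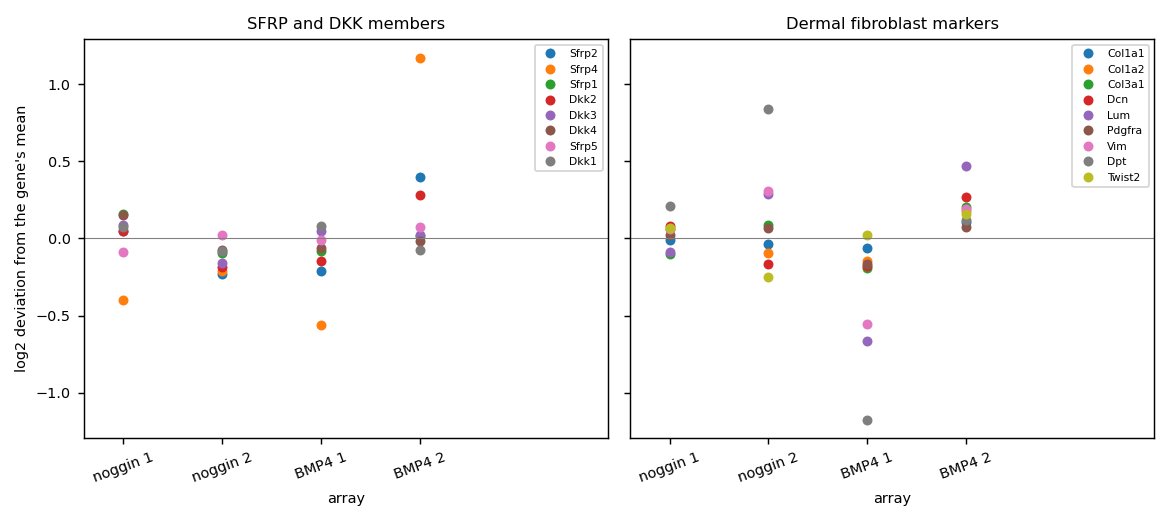
Log2 deviation from each gene's mean on the 4 arrays for the 8 SFRP and DKK members (left) and the 9 measured dermal fibroblast markers (right), one point per gene and array. Sfrp4, Sfrp2 and Dkk2 are highest on BMP4 replicate 2, where 7 of the 9 markers are also highest.

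Axin2 and Nkd1, which canonical signalling itself switches on, had differences of opposite sign, and neither passed. Axin2, a scaffold of the complex that destroys beta-catenin and the most used readout of the pathway, had 7.44 and 7.37 in noggin and 7.15 and 7.45 in BMP4. BMP4 replicate 1 alone was low for Axin2, and the difference of 0.11, whose interval ran from -0.27 to 0.48 (limma, adjusted p = 0.981), was -0.04 without that array. Nkd1, which binds Dishevelled and dampens the signal, had 6.73 and 6.65 in noggin and 6.997 and 6.83 in BMP4, without overlap, a difference of -0.22 (limma, adjusted p = 0.917). Nkd2, its relative, differed by 0.02 with overlap.

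Lef1, the transcription factor of the hair matrix that pairs with beta-catenin, had 6.44 and 6.22 in noggin and 6.35 and 6.51 in BMP4. The groups overlapped, with means of 6.33 ± 0.15 in noggin and 6.43 ± 0.12 in BMP4 (SD, n = 2 each), and the difference was -0.10, its interval running from -0.45 to 0.25 (limma, adjusted p = 0.981). The interval reaches from a level 1.37-fold lower to one 1.19-fold higher in noggin. Lef1 is also expressed by T cells. The 6 measured T cell markers had a median deviation of -0.01 in noggin replicate 1, 0.31 in noggin replicate 2, -0.27 in BMP4 replicate 1 and 0.01 in BMP4 replicate 2. Of the 6, 4 were highest on noggin replicate 2, 1 on noggin replicate 1 and 1 on BMP4 replicate 2. The 10 hair matrix and shaft markers had medians of -0.13, -0.28, 0.46 and -0.02 on the arrays in the same order. Of these, 7 were lowest on noggin replicate 2 (32.6% of all genes), as Lef1 was. On BMP4 replicate 1, 8 were highest (24.2% of all genes), where Lef1 was not. The part of either list in the Lef1 value was not tested.

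Promoters of the members were taken from the RefSeq promoter table of GRCm38.p6, which gave 41 sequences for 34 of the 50 genes, each 300 bases from 250 before to 50 after the transcription start. They were searched on both strands for the TCF and LEF motif, written as CTTTGNN where each N is an A or a T, and for the GC-rich SMAD motif GGCGCC, which reads the same on both strands; the motifs share no overlap. The TCF and LEF letters were in 6 of the 41 member promoters, or 14.6%, against 14.7% of the promoters of protein-coding genes. The SMAD letters were in 12 of 41, or 29.3%, against 15.3%, and the member promoters were richer in G and C, with a median of 66.3% against 56.3%. Printed here are the promoters of the member with the smallest p, of the ligand and a receptor of high signal among those with a match, and of Lef1 at its outermost annotated start. All lie on the plus strand: Wif1 at chr10:121033754-121034053, Wnt4 at chr4:137277385-137277684, Fzd7 at chr1:59481897-59482196 and Lef1 at chr3:131110047-131110346. Capitals mark motif matches: GGCGCC in Wnt4, at positions -42 and -21 from the start, and in Lef1, at -191, and a TCF and LEF match on the minus strand in Fzd7, at -130. The Wif1 window holds neither motif. A match is a description of the letters and not of binding.
Wif1: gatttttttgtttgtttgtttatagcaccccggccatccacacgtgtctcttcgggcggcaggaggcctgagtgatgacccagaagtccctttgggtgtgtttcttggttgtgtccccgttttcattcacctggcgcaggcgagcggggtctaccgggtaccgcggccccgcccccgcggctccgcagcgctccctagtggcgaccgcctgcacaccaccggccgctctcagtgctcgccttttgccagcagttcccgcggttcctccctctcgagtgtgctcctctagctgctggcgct
Wnt4: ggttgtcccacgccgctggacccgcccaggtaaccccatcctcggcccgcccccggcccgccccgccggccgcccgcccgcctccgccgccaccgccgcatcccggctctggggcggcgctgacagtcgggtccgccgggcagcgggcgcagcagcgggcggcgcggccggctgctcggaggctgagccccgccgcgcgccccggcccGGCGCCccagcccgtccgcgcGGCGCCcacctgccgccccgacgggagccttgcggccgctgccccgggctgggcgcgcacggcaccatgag
Fzd7: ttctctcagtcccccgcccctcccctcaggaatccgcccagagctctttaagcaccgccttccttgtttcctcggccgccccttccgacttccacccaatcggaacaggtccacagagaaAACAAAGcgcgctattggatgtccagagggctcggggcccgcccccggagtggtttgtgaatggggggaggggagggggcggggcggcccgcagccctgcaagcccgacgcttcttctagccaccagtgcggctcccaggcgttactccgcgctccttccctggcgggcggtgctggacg
Lef1: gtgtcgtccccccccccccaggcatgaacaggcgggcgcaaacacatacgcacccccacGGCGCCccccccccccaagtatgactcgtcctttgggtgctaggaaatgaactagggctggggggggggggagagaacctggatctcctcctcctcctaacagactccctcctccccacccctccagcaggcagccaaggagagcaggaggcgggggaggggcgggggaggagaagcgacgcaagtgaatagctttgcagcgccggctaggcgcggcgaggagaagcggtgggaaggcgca

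The lines overlapped in Wnt4, Fzd7 and Lef1 and were apart in Wif1, as their values above show.

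Beyond the members, 75 of 77 other listed genes of the pathway were measured. None passed (limma, smallest adjusted p = 0.742). Of the 75, 49 had a lower mean in noggin, or 65.3% against 52.1% of all genes, and the median difference was -0.06. Noggin replicate 2 was the lowest array in 32 of them, or 42.7% against 32.6% of all genes. Without that array 41 had a lower mean in noggin (54.7% against 47.4% of all genes), and the median difference was -0.02. With another array left out the count was 46 to 50. At an unadjusted p below 0.05 limma gave 2 of the 75 on all 4 arrays, both lower in noggin, against 2.1% of all genes in that direction. The noggin arrays were both under the BMP4 arrays in 27, or 36.0% against 17.9%, and above them in 11, or 14.7% against 15.7%. Of 6 basal keratinocyte markers, 5 were on average lower in noggin (median difference -0.12), as were the 10 hair matrix and shaft markers and 7 of the 8 inner root sheath markers, and the part of these markers in the counts was not tested.

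Tcf7l1, a TCF protein that acts mainly as a repressor and is expressed in follicle stem cells, had 6.45 and 6.37 in noggin and 7.13 and 6.90 in BMP4. The lines did not overlap, and the gap between them exceeded the gap between the pools of either line. Its difference of -0.60 had the smallest p of the list, 1.52-fold higher in BMP4, and its interval ran from -0.93 to -0.27, but it did not pass (limma, adjusted p = 0.742). It ranged from -0.72 to -0.485 with 1 array left out. Krt84, a hair keratin, had 5.47 and 5.71 in noggin and 11.60 and 9.09 in BMP4, and Krt25, a keratin of the inner root sheath, had 5.57 and 5.45 in noggin and 7.72 and 6.80 in BMP4. Neither passed (limma, adjusted p = 0.736 for both). They had the largest differences of their lists and were not picked by a rule. The 10 measured hair matrix and shaft markers differed by -4.75 to -0.03 (median -0.34). The 8 inner root sheath markers differed by -1.74 to 0.54 (median -0.09), and Gata3 was the one higher in noggin. The part of these markers in the Tcf7l1 value was not tested. With 1 array left out, the members with differences similar in size to that of Tcf7l1, Lgr4 and Sfrp4, ranged from -0.998 to -0.18 and from -1.48 to 0.25.

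Btrc, the part of the ligase that marks beta-catenin for destruction, had 7.05 and 7.13 in noggin and 7.46 and 7.32 in BMP4 (difference -0.295, limma, adjusted p = 0.874). Ccnd2, a cyclin of the cell cycle that canonical signalling can induce, had 9.96 and 10.06 in noggin and 10.31 and 10.21 in BMP4 (difference -0.25, limma, adjusted p = 0.880). In both genes the lines did not overlap, but neither passed.

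On the noggin side the smallest p values belonged to Apcdd1, Ror1 and Csnk1e. Apcdd1, a membrane inhibitor of WNT signalling in hair follicles, had 7.68 and 7.63 in noggin and 7.36 and 7.53 in BMP4 (difference 0.21, limma, adjusted p = 0.928). Ror1, a receptor for non-canonical ligands, had 6.82 and 6.383 in noggin and 6.375 and 6.22 in BMP4 (difference 0.30). The casein kinase gene Csnk1e had 9.19 and 8.958 in noggin and 8.72 and 8.956 in BMP4 (difference 0.23). In both genes the lower noggin pool all but equalled the higher BMP4 pool. With 1 array left out the differences ranged from 0.09 to 0.52 for Ror1 and from 0.12 to 0.35 for Csnk1e. The genes with the highest signal in the list, Csnk1a1, Daam1 and Cd44, differed by 0.06, 0.13 and 0.05. The 9 genes listed as common targets were Sp5, Ccnd1, Myc, Tnfrsf19, Cd44, Jag1, Ccnd2, Edar and Dkkl1. They had 5 higher and 4 lower means in noggin and a median difference of 0.0099. Dkkl1, whose place among targets is not established here, had the highest difference of the 9, 0.145.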

How the data were processed

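RNA was amplified by the NuGEN pico protocol and labelled with biotin, per the labels. The deposited log2 values are probe set intensities made by the authors with Affymetrix Expression Console and RMA, per the submitters' processing notes, with no version or settings. RMA equalizes the distributions of the arrays, which removes any overall shift and compresses dim probe sets.

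All 35556 probe sets were fitted with limma 3.58.1 in R 4.3.3 (a group term alone, two-sided tests, 2 residual and 2.08 prior degrees of freedom), with Benjamini-Hochberg adjustment over all probe sets and a threshold of 0.05. A gene is read from its single-symbol probe set of highest mean signal. Precision is limited by how few arrays there are. The code was tested on simulated data.

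Described in full were, by rule, the 12 members with the highest mean, the 6 of smallest p in each direction, those with means 0.5 apart, and Lef1, Axin2 and Lgr6. Among other pathway genes the rule took 3 of smallest p in each direction and the 3 highest. Members and lists were chosen with earlier results of these data known.

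Deviations of same-numbered arrays had a correlation of -0.12 over all probe sets. With 2 pools per line this cannot show whether same-numbered pools shared a litter, day or batch. Alternatives were the replicate block, other eBayes priors, leaving out dim probe sets, 3 other scalings, averaged probe sets and leaving out each array. Figures were drawn with matplotlib 3.10.9.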

Additional observations from a re-analysis of the deposited data

How the results depend on the processing

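No alternative gave a member an adjusted p below 0.05 in limma (smallest 0.566, without BMP4 replicate 2), and none called any probe set. The count of members at an unadjusted p below 0.05, 0 with all 4 arrays, was 1 with the replicate block (Lgr4; 3.1% of all genes), 1 with median centring (4.31%), 1 with cyclic loess (4.45%) and 1 with averaged probe sets (5.83%; Wif1 in these 3), and 0 to 3 with an array left out, where all genes gave 2.2% to 4.66% (Fzd3, Lgr5 and Sfrp4 without BMP4 replicate 1, with 2.2%). By the labels the replicates share only a number, and the block changed no call. The crossed replicate block, chosen after seeing the data, gave 0 members at that p and 0 probe sets called. With dim probe sets left out, 31 members remained in the fit and their median difference was -0.0907, against -0.0477 for all 50, while that of all genes was 0.00234. With an array left out the members' median difference ranged from -0.116 to 0.0447 and that of the other pathway genes from -0.0974 to -0.0162. Of 399 values of the 31 described genes under the 13 alternatives, 17 changed sign, 16 of them with an array left out and the other in Wnt4, at 0.079 with averaged probe sets. The ranges over left-out arrays for the 14 genes concerned were -0.036 to 0.19 for Dkk4, -0.059 to 0.19 for Sfrp1, -0.21 to 0.0074 for Lef1, -0.036 to 0.18 for Lgr6, -0.0945 to 0.40 for Wnt3, -0.14 to 0.13 for Wnt4, -0.088 to 0.18 for Cd44, -0.042 to 0.26 for Axin2, -0.22 to 0.0009 for Fzd6, -0.068 to 0.18 for Fzd7, -0.0805 to 0.28 for Kremen1, -0.49 to 0.12 for Sfrp2, -1.48 to 0.25 for Sfrp4 and -0.28 to 0.094 for Znrf3. Their cause was not tested beyond the array left out. A dim probe set has no detection call here.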
